A study of Mus musculus with 3 samples.

Results

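The 6 receptors described here are Olfr6, Olfr711, Olfr2, Olfr713, Olfr714 and Olfr17, which lie near the P element on chromosome 7. They were chosen by name in the authors' table of receptor start sites, where each has 1 position, out of 1085 named positions in all. The P element itself is not marked in the files, so distances to it were not measured. RNA came from the olfactory epithelium of C57/Bl6 mice aged 6 to 8 weeks, with 5 animals pooled in each sample, and the labels name no treatment and no mutation for any sample. RLM-RACE ligates an RNA oligonucleotide to the 5′ end of decapped mRNA, so that complete 5′ ends are copied, and here the reverse transcription used degenerate primers for receptor coding sequence. The cDNA was amplified by nested PCR for the 1 array called Stringent, and by PCR without nesting for the 2 arrays called High Coverage 1 and High Coverage 2, and was read on tiling arrays. The probes carry positions and no gene names, so markers of the tissue were not analysed here.

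Odorant receptors are G protein-coupled receptors, and a mature olfactory neuron expresses 1 allele of 1 receptor gene out of the whole family. The P element is an enhancer that acts in cis on receptor genes in its neighbourhood, as the H element does for a cluster on another chromosome. Receptor genes typically have short noncoding exons at the 5′ end and a coding sequence that lies in a single exon farther downstream. A transcript of this kind should appear on a tiling array as a series of separate stretches of signal that begins at the start site.

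The 6 positions spanned 129.35 kb of chromosome 7 (build mm9) and fell into 2 sets that point away from each other. Olfr6 at 114107470, Olfr711 at 114119135 and Olfr2 at 114149605 lie on the minus strand. Olfr713 at 114174606, Olfr714 at 114214410 and Olfr17 at 114236820 lie on the plus strand. Adjacent positions were 11.665, 30.47, 25.001, 39.804 and 22.41 kb apart, in that order. The strand also divided the receptors by family. RefSeq lists the minus-strand receptors under the family names MOR103-16 (Olfr6, also called M50), MOR103-4 (Olfr711) and MOR103-15 (Olfr2, also called I7, a receptor for octanal and related aldehydes). It lists the plus-strand receptors as MOR263-1 (Olfr713, also P3), MOR263-2 (Olfr714, also P4) and MOR263-5 (Olfr17, also P2, a receptor much used to follow the axons of neurons that express it). All 6 belong to class II, the larger class of odorant receptors.

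RefSeq's gene starts were set beside these positions by sequence only, since the table of start windows is on build GRCm38.p6 and the array data are on mm9. A window was found for 5 of the 6 receptors. The stretches below show 20 bases before the RefSeq start and 50 bases from it (30 for Olfr711), from the gene's own strand. They are shown because they tell what RefSeq takes as the start of each gene, and the capitals mark the first 3 bases of the RefSeq gene.
Olfr6, chr7:106956885-106956954, minus strand: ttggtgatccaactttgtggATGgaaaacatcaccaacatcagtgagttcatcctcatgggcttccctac
Olfr711, chr7:106975422-106975471, minus strand: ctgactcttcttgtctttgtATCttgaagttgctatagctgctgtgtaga
Olfr713, chr7:107036116-107036185, plus strand: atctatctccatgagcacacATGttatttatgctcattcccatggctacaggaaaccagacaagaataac
Olfr714, chr7:107073810-107073879, plus strand: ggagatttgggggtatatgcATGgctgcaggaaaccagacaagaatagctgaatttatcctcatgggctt
Olfr17, chr7:107097447-107097516, plus strand: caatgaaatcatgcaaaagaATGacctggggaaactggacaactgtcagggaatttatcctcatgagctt

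In Olfr6, Olfr713, Olfr714 and Olfr17 the RefSeq gene began with ATG in a frame without a stop codon over the 50 bases at hand, as did 685 of 948 receptor windows (72.3%). For these 4 receptors the reference therefore begins at a coding start and gives no noncoding exon, and the start sites mapped on the arrays are the only 5′ ends described here. Olfr711 began at another triplet. Olfr714 and Olfr17 had the same base at 35 of the 50 positions, and Olfr713 and Olfr714 shared an identical run of 20 bases, offset by the upstream ATG of Olfr713. Probes in such stretches could pick up transcripts of more than 1 receptor, and their part in the signal was not tested. Of the motifs searched on both strands of the 300-base windows, TAATTA and TAATGA (homeodomain cores), CCCNNGGG (a core of the O/E factors) were found in 0 of the 5 windows, and TATAAA in those of Olfr6 and Olfr714. Over all receptor windows the shares were 18.6%, 28.8%, 3.06% and 41%, and over all 32851 windows for any gene they were 5.29%, 9.78%, 13.7% and 13.6%. For the 4 receptors above the search read the bases around a coding start, so the motif counts need not describe the promoters at the mapped start sites. The windows were not placed against those sites directly, since the builds differ. The RefSeq starts of Olfr713, Olfr714 and Olfr17 were spaced otherwise than their named positions, by more than the length of a window. Not all of these windows can therefore reach the mapped start, unless the builds differ in length there.

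All values below are MAT scores, which state how far the probes in a small window are brighter than their base composition predicts. Each array is scaled on its own probes, and a score was therefore also turned into a percentile among the 2188086 scored probes of its array. The authors called regions on each array alone, at a score above 2.52 on Stringent, with 2.53 and 2.99 on High Coverage 1 and 2. These limits stand for unlike MAT p-values (1.75e-09, 1.72e-06 and 2.97e-07), so counts of regions are not at a like limit. Over all scored probes the High Coverage arrays correlated with r = 0.740, and Stringent with each of them at 0.457 and 0.498. The file headers name the material of High Coverage 1 as female and that of High Coverage 2 as male, so array and sex cannot be told apart. With 1 array against 2, no test between the products was run, and the gap between the High Coverage arrays is the only measure of spread.

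On Stringent a called region at the named start was more frequent among the 6 receptors than over all named positions. On the High Coverage arrays its share among the 6 was near or below that over all positions. A called region reached within 100 bp of the position at 6 of 6 receptors on Stringent, against 61.7% of all named positions. High Coverage 1 had one at 2 of 6, against 36.4%, and High Coverage 2 at 2 of 6, against 43.6%. When the region had to cover the position itself, the count was 5 on Stringent, where Olfr17 dropped out. It was 2 on High Coverage 1 and 0 on High Coverage 2. Within 500 bp of the position the count was 6 on Stringent and 3 on each High Coverage array. No share over all named positions was at hand for these other limits. The sources used here do not say how the positions were picked, so signal at a position may not be independent of that choice.

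**Figure D1:**
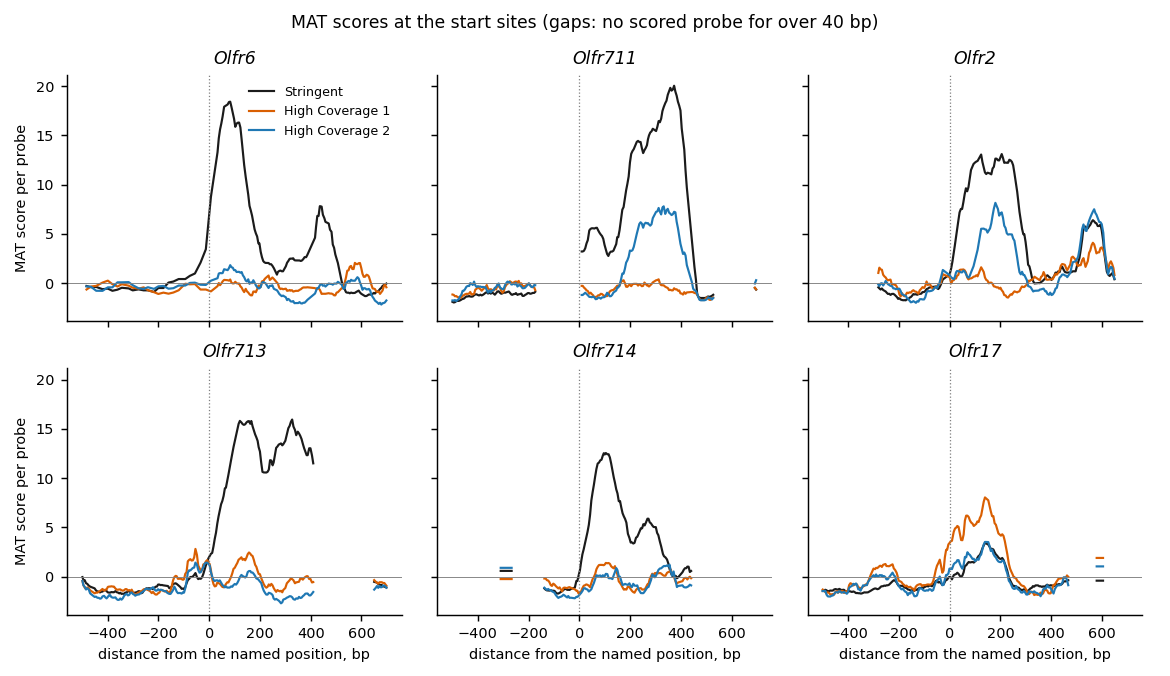
MAT score of each scored probe (vertical axis) against the distance from the named position in bp (horizontal axis, positive downstream) for the 6 receptors, with 1 line for each of the 3 arrays and gaps where no probe was scored. The Stringent line rises just downstream of the dotted position in 5 receptors, while at Olfr17 the High Coverage 1 line is the highest.

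Olfr6 had the strongest start of the 6 by its highest score within 100 bp. That score was 18.4 on Stringent, with 0.363 and 1.82 on High Coverage 1 and 2. The Stringent region ran from -75 to 270 bp, and the first probe above the authors' limit lay at -13 bp. A smaller Stringent rise followed from 355 to 559 bp, with a score of 7.82. Neither High Coverage array had a probe above its limit among the 87 probes from 100 bp upstream to 500 bp downstream, so the Olfr6 start was called on Stringent alone.

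Olfr711 reached 5.62 within 100 bp on Stringent, with -0.283 and -0.981 on High Coverage 1 and 2. No probe was scored between -174 and 9 bp, so the onset itself cannot be placed. Farther into the same Stringent region the score rose to 20.05, at 373 bp. High Coverage 2 had a called region from 137 to 475 bp with a score of 7.8, outside the 100 bp window, while High Coverage 1 stayed at or below 0.382 over the first 500 bp. The low High Coverage 2 value of Olfr711 at the position thus came with a called region a short way downstream.

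Olfr2 scored 12.2 on Stringent, with 1.39 and 2.34 on High Coverage 1 and 2 within 100 bp. Its Stringent region ran from -46 to 366 bp and a second from 449 to 671 bp. High Coverage 2 had regions at nearly the same places, from 48 to 317 bp with a score of 8.15 and from 449 to 671 bp with a score of 7.5. High Coverage 1 had only the later one, with scores of 2.68 and 4.09 in 2 adjoining pieces. The stretch that ended at 671 bp was therefore called on all 3 arrays, and the one at the start on 2 of them.

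Olfr713 scored 13.2, 2.81 and 1.42 on Stringent, High Coverage 1 and High Coverage 2. The Stringent region ran from -45 to 472 bp, to the edge of the tiled stretch, and rose to 15.96 at 327 bp. The High Coverage 1 region lay on the other side of the position, from -116 to 8 bp, and just passed the limit with a score of 2.81 at 1 probe. The High Coverage 1 call at Olfr713 thus did not cover the stretch that was high on Stringent.

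Olfr714 scored 12.5 on Stringent, with 1.24 and 0.138 on High Coverage 1 and 2. Its Stringent region ran from -45 to 384 bp, with 61 of the 103 probes from 100 bp upstream to 500 bp downstream above the limit. Neither High Coverage array had a probe above its limit there. Olfr714 was, with Olfr6, a receptor whose start was seen on Stringent alone.

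Olfr17 was the exception. It scored 1.55 on Stringent, with 6.19 and 2.47 on High Coverage 1 and 2 within 100 bp. The Stringent and High Coverage 2 regions began at 67 and 72 bp and scored 3.43 and 3.52, and the High Coverage 1 region ran from -76 to 284 bp and scored 8.04. All 3 arrays had their highest score of the first 500 bp at the same probe, at 139 bp. Olfr17 was the only member with a called region at the start on all 3 arrays, and the only one whose High Coverage scores were above the Stringent score on both arrays.

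In percentiles of each array, Stringent placed the 6 starts at 99.6 (Olfr6), 95.1 (Olfr711), 97.3 (Olfr2), 97.7 (Olfr713), 97.4 (Olfr714) and 92.2 (Olfr17). Olfr2, Olfr713 and Olfr714 lay very close together, and 1 array gives no spread by which to order them. High Coverage 1 had 78.6, 59.1, 91.0, 96.0, 89.9 and 98.4 in the same order of receptors, and High Coverage 2 had 91.4, 29.97, 93.3, 89.2, 72.3 and 93.7. The 2 High Coverage arrays differed by 2.36 points at Olfr2 and by 29.1 at Olfr711, with a median of 9.83 over the 6, against 4.33 over all named positions. The order of the receptors was not the same on both, with Olfr17 highest and Olfr711 lowest on each.

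The median percentile of the 6 was 97.4 on Stringent and stood at 90.4 on High Coverage 1 and at 90.3 on High Coverage 2, beside 94.4, 91.3 and 92.4 over all scored positions. Stringent was above the High Coverage mean at 5 of the 6 receptors, and at 64.6% of all scored positions. The difference was 50.5 points at Olfr711, 16.3 at Olfr714, 14.6 at Olfr6, 5.18 at Olfr2 and 5.07 at Olfr713, and -3.81 at Olfr17. The difference exceeded the gap between the High Coverage arrays at Olfr6 (12.8), Olfr711 (29.1) and Olfr2 (2.36). At Olfr713 (6.83), Olfr714 (17.6) and Olfr17 (4.67) it did not. The median difference was 9.87 points, and 20.8 with the mean in place of the highest score in the window. The MOR103 receptors had a median of 14.6 points and the MOR263 receptors of 5.07, with ranges that overlapped.

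**Figure D2:**
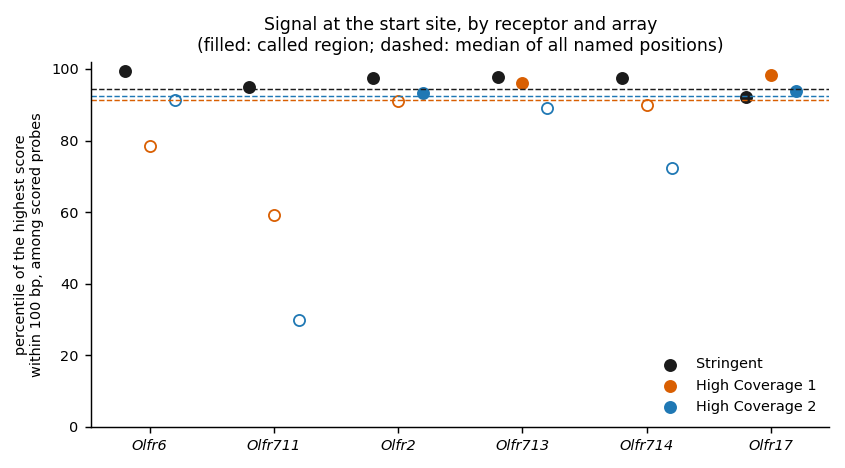
Percentile of the highest MAT score within 100 bp of the named position among all scored probes of the array (vertical axis) for each receptor, with 1 point per array. Filled points have a called region, and dashed lines mark the median of all named positions on that array. Stringent points lie between 92.2 and 99.6, and the High Coverage points of Olfr711 are the lowest, at 59.1 and 29.97.

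Scores around the position were mostly higher on the downstream side, as they were over all named positions. The side was set by the strand in the authors' table. Averaged over 150 bp on each side, the downstream score was the higher one in 5 of 5 receptors with probes on both sides on Stringent, against 94.5% of all positions. It did so in 4 of 5 on High Coverage 1 (70.3% of all) and in 4 of 5 on High Coverage 2 (74.6% of all), and Olfr713 was the exception on both. For Olfr6 the Stringent means were 1.17 upstream and 15.3 downstream, and for Olfr17 they were -0.860 and 1.21. Upstream signal was called on Stringent at 0 of the 6 receptors between 1 kb and 100 bp upstream, where 1.2% of all positions had a region. High Coverage 1 had one at Olfr711 (-828 to -684 bp, score 2.76) and at Olfr2 (-711 to -516 bp, score 4.11), against 17.1% of all positions. High Coverage 2 had one at Olfr2 alone (-667 to -516 bp, score 4.32), against 14.6%. The upstream stretch of Olfr2 was therefore called on both High Coverage arrays, and its highest Stringent score was 0.862.

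Every receptor also had called regions that began over 500 bp downstream of the start, on each of the 3 arrays. This was 6 of 6 on Stringent (88.8% of all positions), 6 of 6 on High Coverage 1 (96.2%) and 6 of 6 on High Coverage 2 (93.5%), so it is not particular to these receptors. No other named position lay between 1 kb upstream and 10 kb downstream of any of the 6. From 129 of 220 bins of 50 bp at Olfr711 to 187 at Olfr713 held scored probes, so parts of each gene could not be read. Regions at most 100 bp apart were joined to blocks. Stringent had 21 blocks over the 6 windows, of which 9 overlapped a block on both High Coverage arrays and 7 overlapped none. High Coverage 1 had 18 and High Coverage 2 had 20. These block counts were not made over all named positions, so whether they are particular to the 6 receptors is not known.

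**Figure D3:**
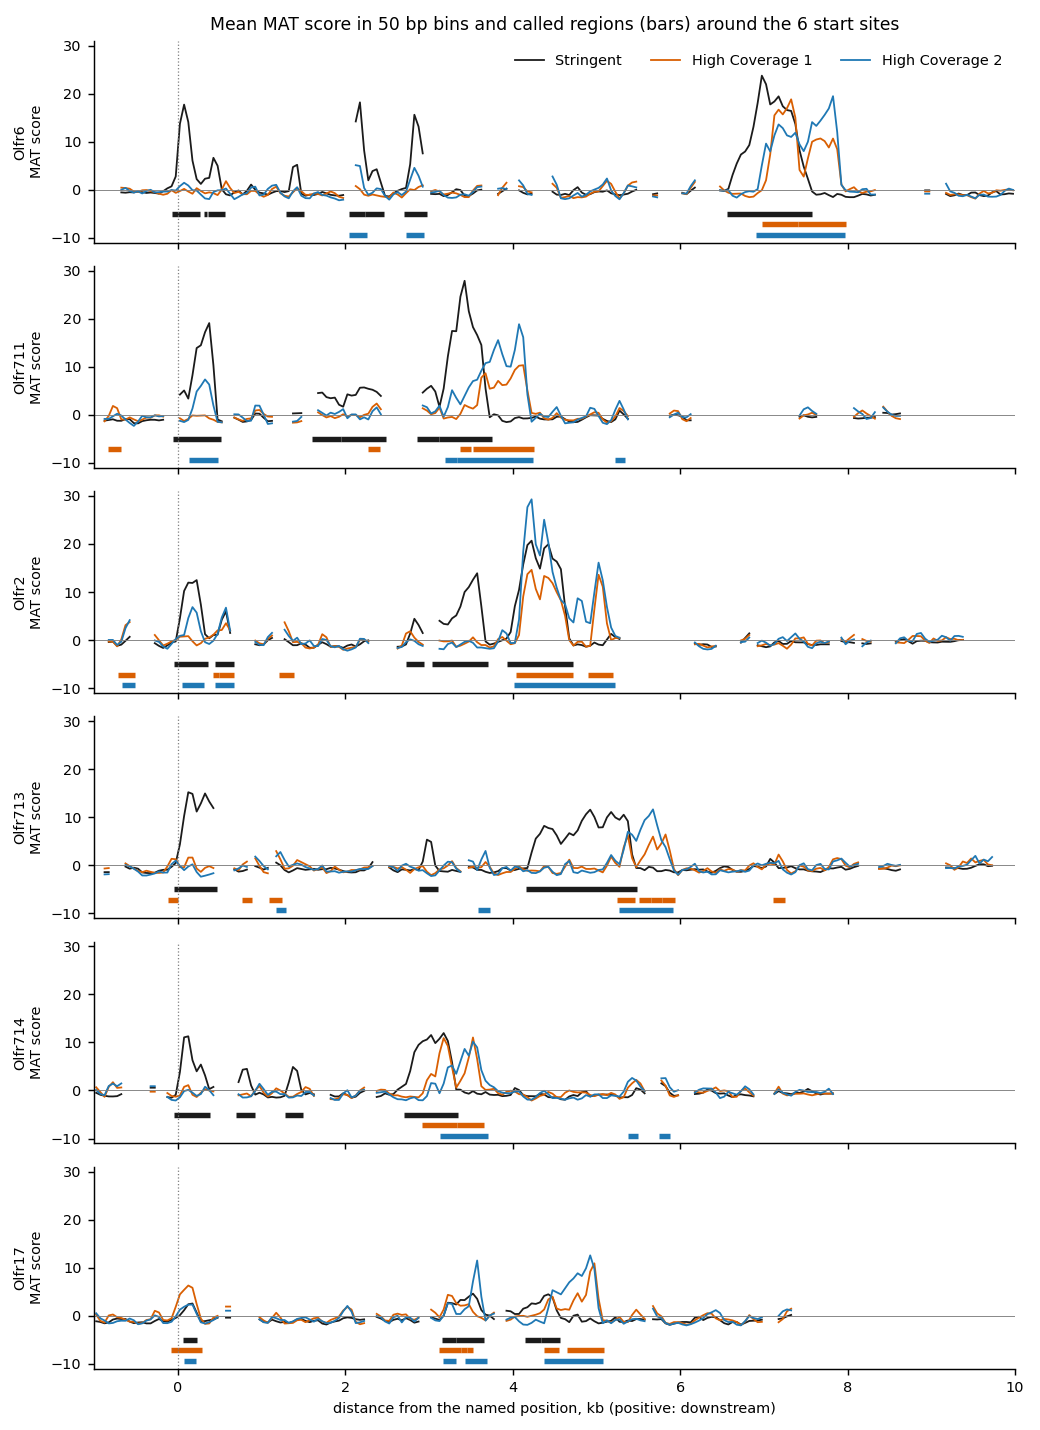
Mean MAT score in bins of 50 bp (vertical axis) from 1 kb upstream to 10 kb downstream of the named position (horizontal axis, kb) for the 6 receptors on the 3 arrays, with the authors' called regions as bars below each profile. Lines break where no probe was scored. Each receptor has a Stringent block at or just after the start, 1 to 3 Stringent blocks in the middle, and a last block on all 3 arrays.

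The middle blocks, between the start and the last shared block, differed among the receptors. Olfr6 had 3 on Stringent, at 1297 to 1506 bp (score 6.52), 2049 to 2468 bp (19.5) and 2703 to 2980 bp (18.4). High Coverage 2 called the last pair of these, at scores of 6.33 and 5.15, and High Coverage 1 called none, with highest scores of 1.10 and 1.24 there. Olfr711 had 1 on Stringent, from 1601 to 2483 bp (6.14), which High Coverage 1 touched with a region of score 2.74. Olfr2 had 1 on Stringent, from 2725 to 3703 bp (14.5), where High Coverage 1 reached 2.27 and High Coverage 2 reached 0.370.

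The plus-strand receptors had middle blocks too. Olfr713 had a Stringent block from 2885 to 3109 bp (7.04) that neither High Coverage array called. Olfr714 had Stringent blocks at 700 to 925 bp (6.73) and 1277 to 1500 bp (5.73), and the High Coverage scores there were below 0. In Olfr17 the block was shared by all arrays. It ran from 3161 to 3653 bp on Stringent (5.75) and from 3121 to 3527 bp on High Coverage 1 (6.35), and High Coverage 2 had 2 pieces from 3166 to 3689 bp (highest score 13.9). In Olfr17 each of the 3 Stringent blocks overlapped a block on both other arrays, which held for none of the other 5 receptors.

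The High Coverage arrays also had blocks that Stringent lacked. In Olfr713 both called a block near the same place, from 1093 to 1250 bp on High Coverage 1 (score 3.7) and from 1170 to 1294 bp on High Coverage 2 (3.14), where Stringent reached no more than 0.825. High Coverage 1 alone called 765 to 889 bp in Olfr713 (2.55) and 1214 to 1383 bp in Olfr2 (3.8), and High Coverage 2 alone called 3584 to 3733 bp in Olfr713 (3.43). Olfr711, Olfr713 and Olfr714 had further weak High Coverage blocks beyond the last shared one, with scores from 3.02 to 3.64, each on 1 array.

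Of the 971 named positions with no other named position in the window, 639 had a block over 500 bp downstream that overlapped between all 3 arrays. All 6 receptors had one, and the farthest downstream is called the last block here. On both High Coverage arrays it held the highest score of the window in each receptor, while on Stringent it did so in Olfr6, Olfr711 and Olfr2, and the start in Olfr713 and Olfr714 and the middle block in Olfr17 were higher. On Stringent it ran from 6561 to 7577 bp in Olfr6 (score 25.3), from 2862 to 3748 bp in Olfr711 (29.6), from 3927 to 4718 bp in Olfr2 (22.1), from 4162 to 5482 bp in Olfr713 (11.9), from 2699 to 3348 bp in Olfr714 (12.4) and from 4147 to 4560 bp in Olfr17 (5.07). High Coverage 1 scored 19.8, 12.3, 17.0, 6.93, 11.8 and 13.6 there, and High Coverage 2 scored 19.95, 20.5, 32.6, 11.95, 10.8 and 14.8. The block lay farther from the start in Olfr6 than in the other 5 on every array. Which exon it holds was not analysed here, for want of an mm9 annotation.

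The product without nesting ended farther downstream in this block. High Coverage 1 ended 400 bp beyond Stringent in Olfr6, 507 bp in Olfr711, 0 bp in Olfr2, 452 bp in Olfr713, 312 bp in Olfr714 and 528 bp in Olfr17. High Coverage 2 ended 389, 492, 509, 428, 361 and 518 bp beyond it in the same order. The High Coverage arrays differed from each other by 10 to 49 bp in 5 receptors, less than their distance to Stringent in each. In Olfr2 they differed by 509 bp, because High Coverage 1 had a separate region from 4901 to 5192 bp (score 14.8) that the joining distance left out. Both High Coverage arrays ended farther in 5 of 6 receptors, against 39.3% of the 639 named positions with such a block and no other position in the window. The median of the High Coverage mean minus Stringent was 417 bp over the 6 and 18.5 bp over those positions, with quartiles of -42 and 197 bp. With each array's highest-scoring block instead, the median over the 6 was again 417 bp. Over 799 positions it was then 100.5 bp, with quartiles of -113 and 468 bp, so the 6 lay within them. Among other positions within 500 kb, 5 had a last shared block. Both High Coverage arrays ended farther at 1 of these, and the median was -191 bp. No test of the difference between the 6 and the rest was run, and the measure was chosen after the profiles were seen.

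**Figure D4:**
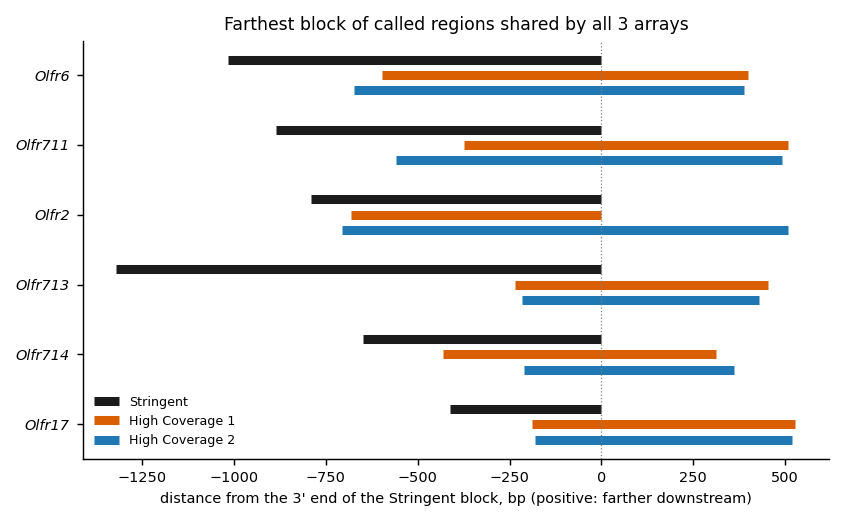
The farthest block of called regions shared by all 3 arrays, drawn from its 5′ to its 3′ edge for each receptor and array, against the distance in bp from the 3′ end of the Stringent block. The High Coverage bars end 312 to 528 bp to the right of the dotted line, except that of High Coverage 1 at Olfr2, which ends on it.

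The scores on both sides of the Stringent end are given as a description, since the called ends that bound the stretches rest on the same scores. In the 200 bp before it the median Stringent score was between 3.94 (Olfr17) and 11.6 (Olfr711). From there to the farther High Coverage end it was between -1.001 (Olfr713) and -0.373 (Olfr714). In that same stretch, read by 72 to 105 probes per receptor, the median was 9.93 in Olfr6, 6.66 in Olfr711, 0.0400 in Olfr2, 3.03 in Olfr713, 3.56 in Olfr714 and 2.98 in Olfr17 on High Coverage 1. High Coverage 2 had 14.7, 12.6, 7.15, 6.55, 7.26 and 7.53. At its 5′ edge the order was the reverse, with the Stringent block beginning before both High Coverage blocks in 6 of 6 receptors, against 64.2% of the 639 positions. The lead was 84 bp at the least, in Olfr2 on High Coverage 2, and 1104 bp at the most, in Olfr713 on High Coverage 2, and no test of it was run.

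Across the bins of a receptor's window the High Coverage arrays followed each other, with Pearson's r of 0.887 in Olfr6, 0.885 in Olfr711, 0.914 in Olfr2, 0.788 in Olfr713, 0.743 in Olfr714 and 0.717 in Olfr17. Stringent followed both of them less closely. Its r with High Coverage 1 went from 0.0451 in Olfr711 to 0.670 in Olfr2. With High Coverage 2 it went from -0.0644 in Olfr713 to 0.716 in Olfr2. These are descriptions over 129 to 187 bins that share probes and windows. Each profile over all 3 arrays was also set against the other named positions. The most alike were Olfr1364 and Olfr145 for Olfr6 (r = 0.628 and 0.563), Olfr582 and Olfr524 for Olfr711 (0.599 and 0.597), Olfr729 and Olfr924 for Olfr2 (0.709 and 0.676), Olfr677 and Olfr591 for Olfr713 (0.626 and 0.526), Olfr530 and Olfr569 for Olfr714 (0.707 and 0.670), and Olfr578 and Olfr211 for Olfr17 (0.478 and 0.447). The median r over the 163 to 284 positions compared was between 0.0153 and 0.0263. None of the 12 was another of the 6 receptors, but some pairs among the 6 could not be compared. A position had to share 80% of the bins scored at the member. Olfr711, with 129 scored bins, fell short of this for Olfr6 (175) and Olfr713 (187). With Spearman's rho 5 of these 12 pairs remained, and with Stringent alone 6.

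The neighbourhood was read as the 16 other named positions within 500 kb, from Olfr693 to Olfr716. They had a called region at 14 positions on Stringent (87.5%, against 61.7% of all named positions). On High Coverage 1 it was 10 (62.5%, against 36.4%), and on High Coverage 2 it was 12 (75%, against 43.6%). A frequent Stringent call at the start was therefore not particular to the 6 receptors. The median percentiles of the 16 were 95.2, 96.4 and 96.3, where the 6 receptors had 97.4, 90.4 and 90.3. Stringent minus High Coverage had a median of -0.499 points in the neighbourhood and was above 0 at 7 of 16. Olfr710, the named position next to Olfr6, was at 89.5 on Stringent, with 97.2 and 94.9 on High Coverage 1 and 2. Olfr716, next to Olfr17, was at 96.7, 95.9 and 99.1. Both neighbours thus had High Coverage regions at the start, as Olfr17 did and Olfr6 did not. The ranges of the difference overlapped (-6.56 to 26.0 points in the neighbourhood, -3.81 to 50.5 over the 6), and no test of it was run.

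**Figure D5:**
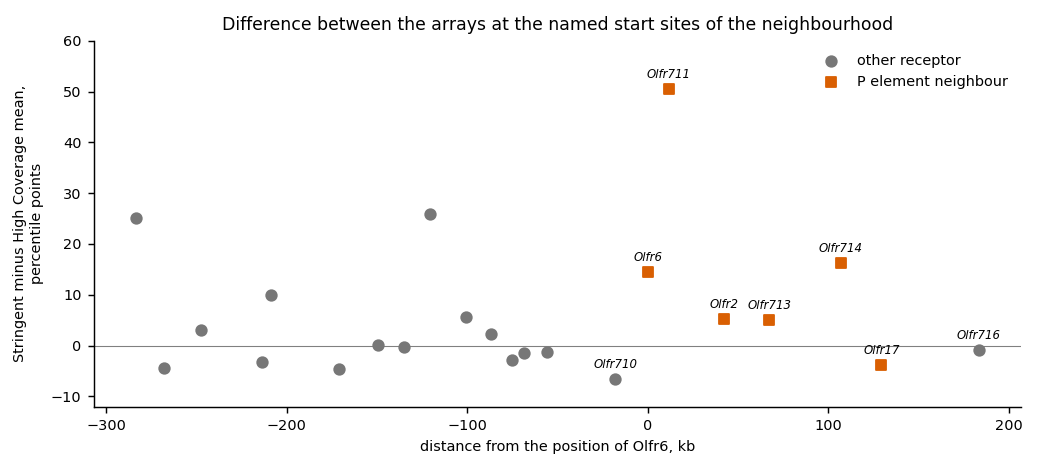
Stringent percentile minus the mean of both High Coverage percentiles at the named start (vertical axis, percentile points) against the distance from the position of Olfr6 in kb, with 1 point per receptor. Squares are the 6 receptors and circles the 16 others within 500 kb. Olfr711 stands highest, at 50.5, and Olfr17 lies near its neighbour Olfr716 close to 0.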

How the data were processed

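The authors deposited a MAT score per probe position and a list of called regions for each of the 3 arrays, and a table of named positions with strand. Per the file headers, each array was scored without a control array (bandwidth 50, gap of up to 30, 5 probes or more) on a scale named natural log, and regions were called at a false discovery rate of 0 percent. The submitters' processing notes name the build mm9. Region scores and edges are the authors' own. Scores of exactly 0 on all 3 arrays (5.42% of 2313448 probes) were read as no score. The value at a start was the highest score within 100 bp. Blocks join regions at most 100 bp apart. The members and lists were chosen with earlier results of these data known. Named genes are the 6 members, the 2 positions of most similar profile for each, and the next named position on either side. The rule for profiles asked for 80% of all bins in both, which only 1 member had, so it was applied to the bins scored at the member. With 1 array against 2, no test between groups was run. The call at a position, the block ends, the downstream side and the percentile were tested on simulated data, and the other steps were not. Tables were computed in Python 3.11.15 with pandas 2.3.3, scipy 1.17.1 and numpy 2.4.6, and plots were drawn with matplotlib 3.10.9.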

Additional observations from a re-analysis of the deposited data

How the results depend on the processing

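Of 54 values recomputed under an alternative, 40 moved by less than the spread between the High Coverage arrays, and 14 moved further. For counts the limit was a change of no more than 1.5 times. The differences between Stringent and High Coverage kept their sign under each alternative, while counts and percentiles have no direction to keep. With only the regions at or above the array's median score, 5 receptors had a region at the start on Stringent. The same filter left 1 on High Coverage 1 and 1 on High Coverage 2, and no share over all named positions was at hand for it. On High Coverage 2 the count was 0 at the position itself and 1 with at least 50 bp of overlap. With the mean score in the window the median percentile was 72.5 on High Coverage 1 and 73.6 on High Coverage 2, and the median difference was 20.8 points. On a median and MAD scale the difference was 27.4 MAD, a unit of its own. Without each High Coverage array in turn it lay between 6.95 and 8.32 points. Of the 12 most similar profiles, 5 remained with Spearman's rho, 6 on Stringent alone and 0 when 80% of all bins were asked for, where only Olfr713 could be compared. For the last shared block the 3′ end difference was 366 bp with regions joined at 50 bp, 466 bp at 200 bp, and 426 to 460 bp without each High Coverage array in turn. The block, its alternatives and that of the bins were added after the data were seen. No paired analysis was possible because Stringent has 1 array, so the groups share fewer than 2 replicate numbers. The number of arrays and the untiled stretches limit the precision.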
